A study of Mus musculus with 24 samples.

Results

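The effect of the TTPΔARE genotype that HSCs and MPP3 cells had in common was measured over all 24 mRNA-seq libraries of the study, 11 from TTPΔARE mice and 13 from WT mice. By their titles, the libraries fell into 3 contexts. These were Y-HSC, the HSCs of young mice (4 WT and 4 TTPΔARE), M-HSC, the HSCs of middle-aged mice (5 WT and 3 TTPΔARE), and Y-MPP3, young MPP3 cells (4 WT and 4 TTPΔARE). For the last of these contexts, the study's own comparison used fewer TTPΔARE libraries than the labels list. It does not name any that were left out, and every labelled library was kept here. TTPΔARE mice were homozygous for a germline deletion of the AU-rich element in the 3′ UTR of Zfp36, so that every cell of the animal carried it, and the WT mice were littermate controls. All mice were male. HSCs were sorted from bone marrow as Lineage- Sca1+ Kit+ cells without CD34 and Flk2 and with CD150, and MPP3 cells are the myeloid-biased multipotent progenitors of the same Lineage- Sca1+ Kit+ population.

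Tristetraprolin (TTP), the protein that Zfp36 encodes, is a zinc finger protein that binds AU-rich elements in the 3′ UTRs of mRNAs and recruits the deadenylation machinery, after which the bound mRNA is degraded. Many of its known targets encode cytokines, chemokines and other proteins of the innate immune response. The Zfp36 mRNA itself carries such an element, through which TTP limits its own level. HSCs maintain all blood lineages, and both HSCs and MPP3 cells respond to inflammatory cytokines.

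The sum of counts of a library lay between 24261371 and 39934554. Summed CPM (counts scaled to the depth of the library and by its TMM factor) of 8 marker genes of the HSC sort gate were 3060 to 4870 in the 16 HSC libraries and 1870 to 2990 in the 8 MPP3 libraries. Those of 9 genes of the MPP3 gate were 1720 to 2430 in HSCs and 3690 to 4980 in MPP3 cells, so both lists followed the labelled cell type. Gate genes also differed by genotype. The HSC gate sum was 3060 to 3420 in Y-WT and 3570 to 3660 in Y-TTPΔARE HSCs, and 3690 to 4400 and 4480 to 4870 in M-HSC. In MPP3 cells it was 2340 to 2990 in WT and 1870 to 2400 in TTPΔARE. Kit, a gene of both gates, was at 1260 to 1480 CPM in WT and 569 to 1130 CPM in TTPΔARE MPP3 cells. The MPP3 gate sum overlapped between genotypes in each context. Some libraries stood apart from their groups. The TMM factor of Y-TTPΔARE MPP3 replicate 4 was 0.7306, against 0.846 to 1.1476 in the other 23 libraries. Genes of olfactory and vomeronasal receptors summed to 57.8 CPM in Y-WT HSC replicate 1, against 573.1 to 944.8 in the other 3 libraries of its group, and to 72.2 CPM in Y-TTPΔARE HSC replicate 1, against 323.5 to 389.5 in the other 3 of that group. Whether each library came from a separate animal is not stated in the labels, so that p-values measure the spread between these libraries.

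The first question was whether the targeted gene followed the labels. Zfp36 (chr7:28376784-28380253 in GRCm38, minus strand) was measured at 69.2, 32.5, 34.8 and 53.5 CPM in the 4 Y-WT HSC libraries and at 105, 92.4, 85.4 and 96.2 CPM in the 4 Y-TTPΔARE HSC libraries. In the M-WT HSC libraries it was at 45.7, 49.6, 41.6, 53.5 and 60.4 CPM, against 95, 104 and 106 CPM in M-TTPΔARE. In MPP3 cells the WT libraries were at 38.4, 20.5, 28.9 and 30 CPM and the TTPΔARE libraries at 116, 97.4, 81.7 and 124 CPM. Every TTPΔARE library was above every WT library, also across contexts, since the highest WT value was 69.2 CPM and the lowest TTPΔARE value 81.7 CPM. The shared change was 2.44-fold (log2 fold change 1.29, SE 0.14, edgeR quasi-likelihood test, adjusted p = 1.57e-05). An exact permutation test of the mean log2 CPM difference, with genotype permuted within context over 274400 arrangements, gave a two-sided p of 3.6e-06. The log2 fold change was 1.00 (SE 0.20) in Y-HSC, 1.02 (SE 0.20) in M-HSC and 1.83 (SE 0.21) in Y-MPP3. The other members of the TTP family, Zfp36l1 and Zfp36l2, had shared log2 fold changes of 0.06 (SE 0.11, adjusted p = 0.95) and 0.01 (SE 0.05, adjusted p = 0.982), and the sign of either turned under at least 1 other scaling.

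Genes were then asked to move with the genotype across contexts. Calls required a fold change above 1.2, a logCPM (average log2 CPM) above 1.5 and a p below 0.05 after Benjamini-Hochberg adjustment, the limits of the study's methods. Of 29115 genes tested, 13590 were over the logCPM limit. In TTPΔARE, 293 of them (2.16%) were called higher and 109 (0.802%) lower, 402 (2.96%) in all. The change was over 2-fold in 69 of the former and 21 of the latter. Among the called genes, 288 were higher and 105 lower in each of the 3 contexts. Of all 13590 genes, 33.6% had the same sign in the 3 contexts, in either direction. The called genes were chosen by their shared change in the same libraries, so a common sign is largely built into the choice. Without a single library, the called genes numbered 173 to 339 higher and 70 to 126 lower. The count of higher genes fell by more than 1.5 times without Y-WT HSC replicate 3 (173), Y-WT HSC replicate 4 (178), Y-WT MPP3 replicate 4 (193) or Y-TTPΔARE MPP3 replicate 4 (193), and that of lower genes without M-TTPΔARE HSC replicate 3 (70). Calls kept in all 24 of these fits numbered 126 higher and 47 lower.

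The balance of higher and lower calls depended on the scaling. With TMM factors 72.9% of the called genes were higher, while there were 198 higher and 160 lower (55.3% higher) with RLE factors, 232 and 142 with upper quartile factors (62%) and 183 and 153 with no scaling factors (54.5%). No gene called with TMM factors had the opposite sign under these scalings. DESeq2 called 402 higher and 308 lower (56.6%). Without Y-TTPΔARE MPP3 replicate 4 the split was 193 to 126 (60.5%), and without it and Y-WT HSC replicate 1 it was 200 to 109.

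**Figure D1:**
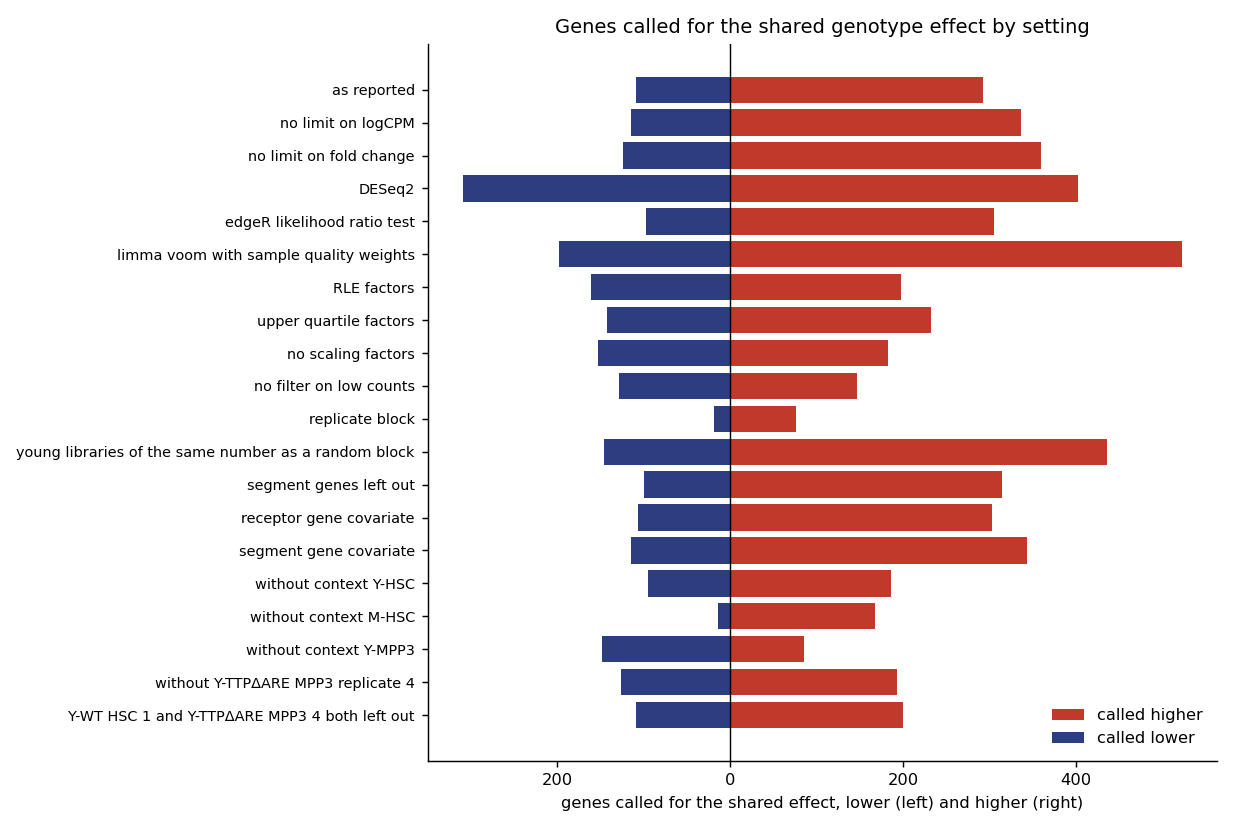
Number of genes called for the shared genotype effect under each setting, lower in TTPΔARE to the left and higher to the right of 0. As reported, 293 genes were higher and 109 lower; the split was 198 to 160 with RLE factors and 193 to 126 without Y-TTPΔARE MPP3 replicate 4.

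The strictest view asks that WT and TTPΔARE libraries do not overlap in CPM in any of the 3 contexts. That held for 33 genes higher (0.243% of the genes over the limit) and 11 lower (0.0809%) in TTPΔARE, of which 30 and 10 were also called. In single contexts, separation was common: 6.67% of the genes over the limit were separate and higher and 1.59% lower in Y-HSC, 9.4% and 4.37% in M-HSC, and 5.14% and 6.45% in Y-MPP3. A test that requires a change in each context, with the largest of the 3 within-context p-values as the p of a gene, called 0 genes with edgeR (smallest adjusted p 0.259). Unadjusted, 67 genes were higher and 23 lower at a p under 0.05 in that test (0.662% of genes). All 90 were among the genes called for the shared effect, which was nearly bound to follow, since both tests used the same libraries. DESeq2 called 5 genes in this test, edgeR's likelihood ratio test 3 and limma voom with sample quality weights 2. Within single contexts of the joint fit, 15 genes were called higher (0.11%) and 3 lower (0.0221%) in Y-HSC, 35 (0.258%) and 18 (0.132%) in M-HSC, and 663 (4.88%) and 581 (4.28%) in Y-MPP3. The median log2 fold change of the genes called higher was 0.40 in Y-HSC, 0.44 in M-HSC and 0.77 in Y-MPP3, and that of the genes called lower was -0.42, -0.50 and -0.68. MPP3 cells had the change farthest from 0 in 188 of the 288 genes higher throughout and in 62 of the 105 lower throughout. The share of all genes with the MPP3 change farthest from 0 was not counted.

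**Figure D2:**
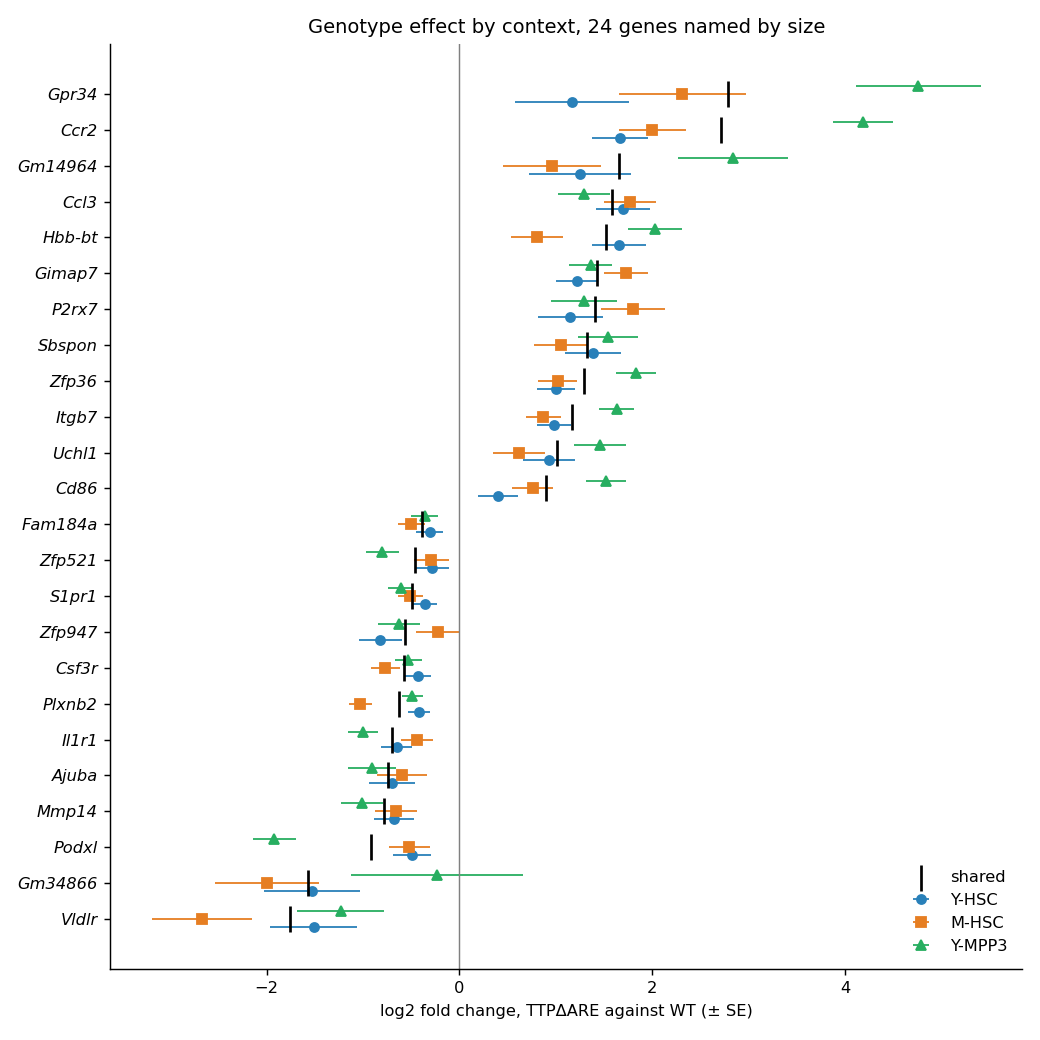
Log2 fold change of TTPΔARE against WT by context (circles Y-HSC, squares M-HSC, triangles Y-MPP3, with SE) and shared (black bars) for the 12 higher and 12 lower genes named by size. All 24 genes lie on 1 side of 0 in the 3 contexts because only such genes were chosen. Ccr2 reached 4.19 in Y-MPP3 against 1.67 and 2.00 in HSCs, while Ccl3 was at 1.29 in Y-MPP3 against 1.70 and 1.77.

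Chemokines and their receptors, which direct the migration of leukocytes, were among the genes that rose in TTPΔARE. Of 25 listed genes over the logCPM limit, 7 were called higher and 0 lower, with a median shared log2 fold change of 0.72 against 0.04 over all genes. By context the median of the list was 0.44 in Y-HSC, 0.21 in M-HSC and 1.45 in Y-MPP3. Without Y-TTPΔARE MPP3 replicate 4 there were 6 called higher. Without the MPP3 cells 22 genes were over the limit, 5 were called higher and 1 lower, and the median was 0.36. Ccl3 (chr11:83647844-83649355), an inflammatory chemokine and a known TTP target, was at 4.06, 4.39, 6.69 and 4.37 CPM in Y-WT HSCs and at 16.5, 14.6, 15.6 and 16.6 CPM in Y-TTPΔARE HSCs. It was at 4.91, 6.82, 2.63, 4.3 and 6.04 CPM in M-WT and at 16, 13 and 21.8 CPM in M-TTPΔARE HSCs, and at 16.3, 9.94, 19.6 and 9.26 CPM in Y-WT and 25.7, 39.5, 26 and 43.1 CPM in Y-TTPΔARE MPP3 cells. No TTPΔARE library overlapped the WT libraries of its context. The shared change of Ccl3 was 2.99-fold (log2 fold change 1.58, SE 0.16, adjusted p = 6.38e-06).

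Ccl4, the related chemokine encoded next to Ccl3, was also separated by genotype in each context. It had means of 24.7 ± 1.41 and 40.6 ± 6.22 CPM in Y-WT and Y-TTPΔARE HSCs (SD, n = 4 and 4), of 23.1 ± 4.56 and 37.4 ± 5.72 in M-WT and M-TTPΔARE HSCs (n = 5 and 3), and of 13.9 ± 2.63 and 23.5 ± 6.25 in MPP3 cells (n = 4 and 4). Its log2 fold changes were 0.72, 0.69 and 0.76 in Y-HSC, M-HSC and Y-MPP3, and the shared one was 0.72 (SE 0.10, adjusted p = 0.000539). Among the receptors, Ccr2 (chr9:124101950-124113557), the receptor through which monocytes leave the marrow, rose 6.56-fold (log2 fold change 2.71, SE 0.32, adjusted p = 4.93e-05). It went from 3.88, 2.59, 4.46 and 3.54 CPM to 16.5, 11.4, 9.03 and 9.11 CPM in Y-HSC, from 0.19 to 0.562 CPM in the 5 M-WT libraries to 1.76, 0.671 and 1.56 CPM in M-TTPΔARE, and from 7.83, 6.88, 13.6 and 9.54 CPM to 191, 120, 175 and 205 CPM in MPP3 cells. The groups did not overlap in any context, while the size of the change differed between contexts (adjusted p of the difference 0.00202). Cxcr6, a receptor of lymphocytes, had a shared log2 fold change of 2.05 (SE 0.31, adjusted p = 0.00084), with groups that overlapped in both HSC contexts.

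**Figure D3:**
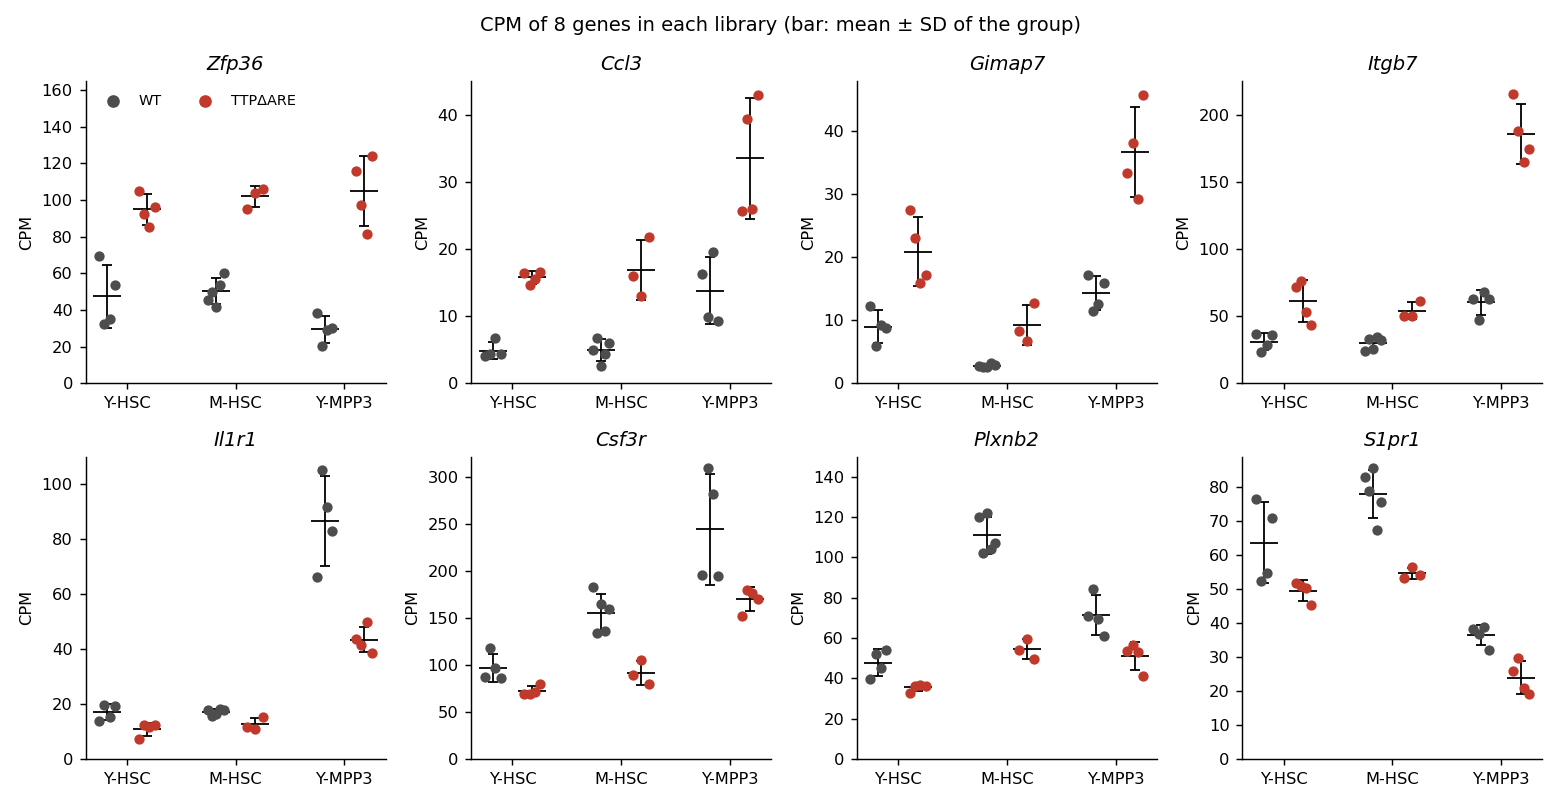
CPM of 8 genes in each of the 24 libraries (points, WT dark and TTPΔARE red) with the mean and SD of each group. Zfp36, Ccl3, Gimap7 and Itgb7 were higher and Il1r1, Csf3r, Plxnb2 and S1pr1 lower in every TTPΔARE library than in every WT library of the same context; the lowest TTPΔARE value of Zfp36 was 81.7 CPM and the highest WT value 69.2 CPM.

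Of 18 transcripts reported as TTP targets and over the logCPM limit, 3 rose (Ccl3, Ccl4 and Cdkn1a) and 2 fell (Il1r1 and Socs3). Cdkn1a, which encodes the cell cycle inhibitor p21, had a shared log2 fold change of 0.63 (SE 0.12, adjusted p = 0.00659), with 0.38 in Y-HSC, 0.41 in M-HSC and 1.09 in Y-MPP3. The element that TTP prefers, TATTTAT in the DNA letters of the annotation, was searched for in the longest annotated 3′ UTRs on the sense strand, and overlapping matches were counted. Examples are shown with this motif in capitals for Zfp36, for the reported targets called in either direction that held it, and for Ccr2, which is not among the 18. The 3′ UTR of Cdkn1a held 0. The site of Zfp36 lies at chr7:28376951-28376979 (minus strand), that of Ccl3 at chr11:83648003-83648031 (minus), that of Ccl4 at chr11:83664542-83664570 (plus), that of Ccr2 at chr9:124107715-124107743 (plus), and those of Il1r1 and Socs3 at chr1:40314928-40314956 (plus) and chr11:117966139-117966167 (minus), all in GRCm38 and written 5′ to 3′ in the sense of the gene.
Zfp36: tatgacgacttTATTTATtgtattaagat
Ccl3: gtatttgtgacTATTTATtctgaaagact
Ccl4: attatttctatTATTTATgttttagttat
Ccr2: tccttacatgaTATTTATaaaattattgt
Il1r1: ttcactgttggTATTTATagcacctacct
Socs3: ctttgcacataTATTTATatttatactca
The Zfp36 3′ UTR of the WT annotation held 3 such motifs, that of Il1r1 and that of Socs3 2 each, and those of Ccl3, Ccl4 and Ccr2 1 each.

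Across genes, the motif was then counted by the direction of change. TATTTAT was in the 3′ UTR of 24.6% of the genes called higher, 28.9% of those called lower and 30.1% of all genes over the limit that had an annotated 3′ UTR. Per kilobase of 3′ UTR it occurred 0.284, 0.245 and 0.285 times. The shorter ATTTA was in 63.1%, 75.9% and 70.3%, with median 3′ UTR lengths of 788.5, 1408 and 1183 bases. Of 1656 genes over the limit on a list of TTP-bound transcripts from crosslinking (CLIP), 57 were called higher (3.44%) and 5 lower (0.302%), beside 2.16% and 0.802% of all genes, and their median shared log2 fold change was 0.06 against 0.04. The 5 lower ones, Chn2, Il1r1, Jak3, Slco3a1 and Socs3, were named after their values were seen. Of the CLIP transcripts that were called, most stood higher in TTPΔARE, as did 72.9% of all called genes. That share fell with other scalings, under which the CLIP transcripts were not counted.

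GIMAP genes encode small GTPases of the immune system that act in lymphocyte survival. All 8 listed members were over the logCPM limit and had a positive log2 fold change in each of the 3 contexts, and 3 of them were called, with and without Y-TTPΔARE MPP3 replicate 4, without the MPP3 cells and with RLE factors. Gimap7 (chr6:48718621-48724636) had the smallest p of all genes for the shared effect. It was at 12.2, 5.92, 9.17 and 8.74 CPM in Y-WT and at 27.5, 23.1, 15.9 and 17.1 CPM in Y-TTPΔARE HSCs, between 2.5 and 3.2 CPM in the 5 M-WT libraries and at 8.27, 6.63 and 12.8 CPM in M-TTPΔARE HSCs. In MPP3 cells it was at 17.1, 11.5, 12.5 and 15.9 CPM in WT and at 33.4, 38.2, 29.3 and 45.8 CPM in TTPΔARE. The groups were separate in each context, and the shared change was 2.69-fold (log2 fold change 1.43, SE 0.13, adjusted p = 2.74e-06). Gimap3 rose by a log2 fold change of 1.66 (SE 0.23, adjusted p = 0.000539) and Gimap4 by 1.14 (SE 0.19, adjusted p = 0.00245).

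Other cell surface genes of leukocytes rose with the groups separate in the 3 contexts. Itgb7, the beta 7 integrin subunit used in homing, was at 31.1 ± 6.55 and 61.3 ± 15.4 CPM in Y-WT and Y-TTPΔARE HSCs (SD, n = 4 and 4), at 29.7 ± 4.76 and 54.1 ± 6.48 CPM in M-HSC (n = 5 and 3), and at 60.3 ± 9.16 and 186 ± 22.4 CPM in MPP3 cells (n = 4 and 4). Its shared log2 fold change was 1.17 (SE 0.12, adjusted p = 8.89e-06). P2rx7, an ATP-gated channel of immune cells, rose by 1.41 (SE 0.19, adjusted p = 0.000409), with 1.15, 1.80 and 1.29 in Y-HSC, M-HSC and Y-MPP3. Cd86, a costimulatory ligand, rose by 0.90 (SE 0.15, adjusted p = 0.00257), from 0.40 in Y-HSC to 1.52 in Y-MPP3. Gpr34, a lysophosphatidylserine receptor of microglia and other myeloid cells, rose by 2.79 (SE 0.51, adjusted p = 0.00467), but from low levels: it was between 0.0505 and 0.966 CPM in the HSC libraries of WT mice and between 0.376 and 1.97 CPM in those of TTPΔARE mice. Without Y-TTPΔARE MPP3 replicate 4 its logCPM fell under the limit (log2 fold change 2.56, adjusted p = 0.00605). Separate groups in each context were also seen for Sbspon, a secreted matrix protein, Uchl1, a deubiquitinase, and the predicted gene Gm14964, with shared log2 fold changes of 1.32, 1.01 and 1.65.

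Genes of the erythroid lineage formed a smaller group, with 3 of 16 listed genes over the limit called higher. Hbb-bt, an adult beta-globin gene, was at 11.9 ± 2.89 CPM in Y-WT and 37.2 ± 5.6 CPM in Y-TTPΔARE HSCs (SD, n = 4 and 4), at 14.9 ± 4.78 and 26.1 ± 5.28 CPM in M-HSC (n = 5 and 3) and at 15.4 ± 6.23 and 62.9 ± 16.5 CPM in MPP3 cells (n = 4 and 4). The groups did not overlap in any context, and the shared log2 fold change was 1.52 (SE 0.19, adjusted p = 0.000123). Reads of the near-identical beta-globin genes can be split between them by the counting. Klf1, a master regulator of erythroid genes, had a shared log2 fold change of 1.43 (SE 0.28, adjusted p = 0.00878), and Car1, a carbonic anhydrase of red cell precursors, of 2.86 (SE 0.74, adjusted p = 0.0442). Their groups were separate only in Y-HSC, where Klf1 rose from 1.7 to 5.04 CPM in WT to 7.98 to 21.2 CPM in TTPΔARE. Summed CPM of the 25 erythroid genes were 1440 to 1830 in Y-WT, 1650 to 2220 in Y-TTPΔARE, 1330 to 1760 in M-WT and 2030 to 2270 in M-TTPΔARE HSCs, and 1170 to 1720 and 1310 to 1940 in WT and TTPΔARE MPP3 cells. Most of each sum was Car2, another carbonic anhydrase, which was not called (0.25, adjusted p = 0.259) and was at 1050 to 1420 CPM in M-WT and 1730 to 1940 CPM in M-TTPΔARE HSCs. The globin genes Hba-a1 and Hbb-bs were not called either (adjusted p = 0.106 and 0.0802), with log2 fold changes of -0.50 and -0.19 in M-HSC. In bulk samples, more cells of a type and more RNA per cell cannot be told apart.

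Glycolysis genes were called higher in 5 of 26 cases and lower in 0, with medians of 0.14, 0.08 and 0.13 in Y-HSC, M-HSC and Y-MPP3. Hk3, a hexokinase of myeloid cells, rose from 31 to 38.8 CPM in Y-WT to 54.6 to 65.1 CPM in Y-TTPΔARE HSCs and from 55.1 to 61.8 to 93.7 to 95.3 CPM in M-HSC, with no overlap. In MPP3 cells it was at 102 to 169 CPM in WT and 152 to 207 CPM in TTPΔARE, which overlapped. Its shared log2 fold change of 0.67 (SE 0.07, adjusted p = 1.57e-05) came from 0.80 in Y-HSC, 0.67 in M-HSC and 0.53 in Y-MPP3. Hk2, Aldoa, Pfkp and Pfkfb3 had shared log2 fold changes of 0.46, 0.30, 0.29 and 0.32. Without Y-TTPΔARE MPP3 replicate 4 only 2 of the 26 genes were called higher, and without the MPP3 cells 1 was called higher and 1 lower.

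Immediate early genes, which respond within minutes to stimuli and many of whose mRNAs hold AU-rich elements, were called higher in 5 of 26 cases, Zfp36 included, and the median shared log2 fold change was 0.31. Btg1, an antiproliferative gene, was separate in each context and rose by 0.60 (SE 0.09, adjusted p = 0.000653), with 0.53, 0.41 and 0.84 in Y-HSC, M-HSC and Y-MPP3. Klf6, Dusp6 and Dusp5 had shared log2 fold changes of 0.52, 0.57 and 0.39. Among 22 genes of G1 cyclins, their kinases and brakes on the cell cycle, 3 were called higher (Btg1, Cdkn1a and Txnip) and 0 lower. Of 45 S-phase and mitosis genes 0 were called by edgeR and 3, all lower, by DESeq2. At an unadjusted p under 0.05, 1 was higher and 9 lower, and the median was 0.13 in Y-HSC, -0.20 in M-HSC and -0.21 in Y-MPP3.

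NF-kB and TNF signalling, pathways that TTP is known to restrain, gave 4 called genes of 54 (Cd83, Irf1, Ebi3 and Traf1, all higher), beside 2.16% of all genes called higher. It gave 1 of 54 without Y-TTPΔARE MPP3 replicate 4, and 0 without the MPP3 cells or without M-HSC. The median of the list was 0.145 in Y-HSC, 0.006 in M-HSC and 0.175 in Y-MPP3. Cd83, a marker of activated dendritic and B cells, rose by a log2 fold change of 1.58 (SE 0.33, adjusted p = 0.0131), with 0.68, 1.34 and 2.71 in Y-HSC, M-HSC and Y-MPP3. Traf1, a TNF receptor adaptor, had 0.22 and 0.15 in the HSC contexts and 1.45 in Y-MPP3, which differed (adjusted p = 0.00623). Of 64 interferon-stimulated genes 7 were called higher, 4 without Y-TTPΔARE MPP3 replicate 4 and 0 without the MPP3 cells, where 60 were over the limit. Irf5, a transcription factor of innate immunity, was separate in each context with 0.24, 0.36 and 1.16 (adjusted p of the difference 0.00157). Ifi205 was at 58 to 118 CPM in Y-TTPΔARE MPP3 cells and at most 3.21 CPM in WT MPP3 cells, and at most 1.5 CPM in any HSC library. Of the TGF-beta and BMP list, Nrros and Id2 were called of 40 genes. Id2 was at 148 to 501 CPM in Y-TTPΔARE and 10.9 to 21.4 CPM in Y-WT MPP3 cells, while its log2 fold change was 0.94 in Y-HSC and 0.18 in M-HSC (adjusted p of the difference 8.34e-05).

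**Figure D4:**
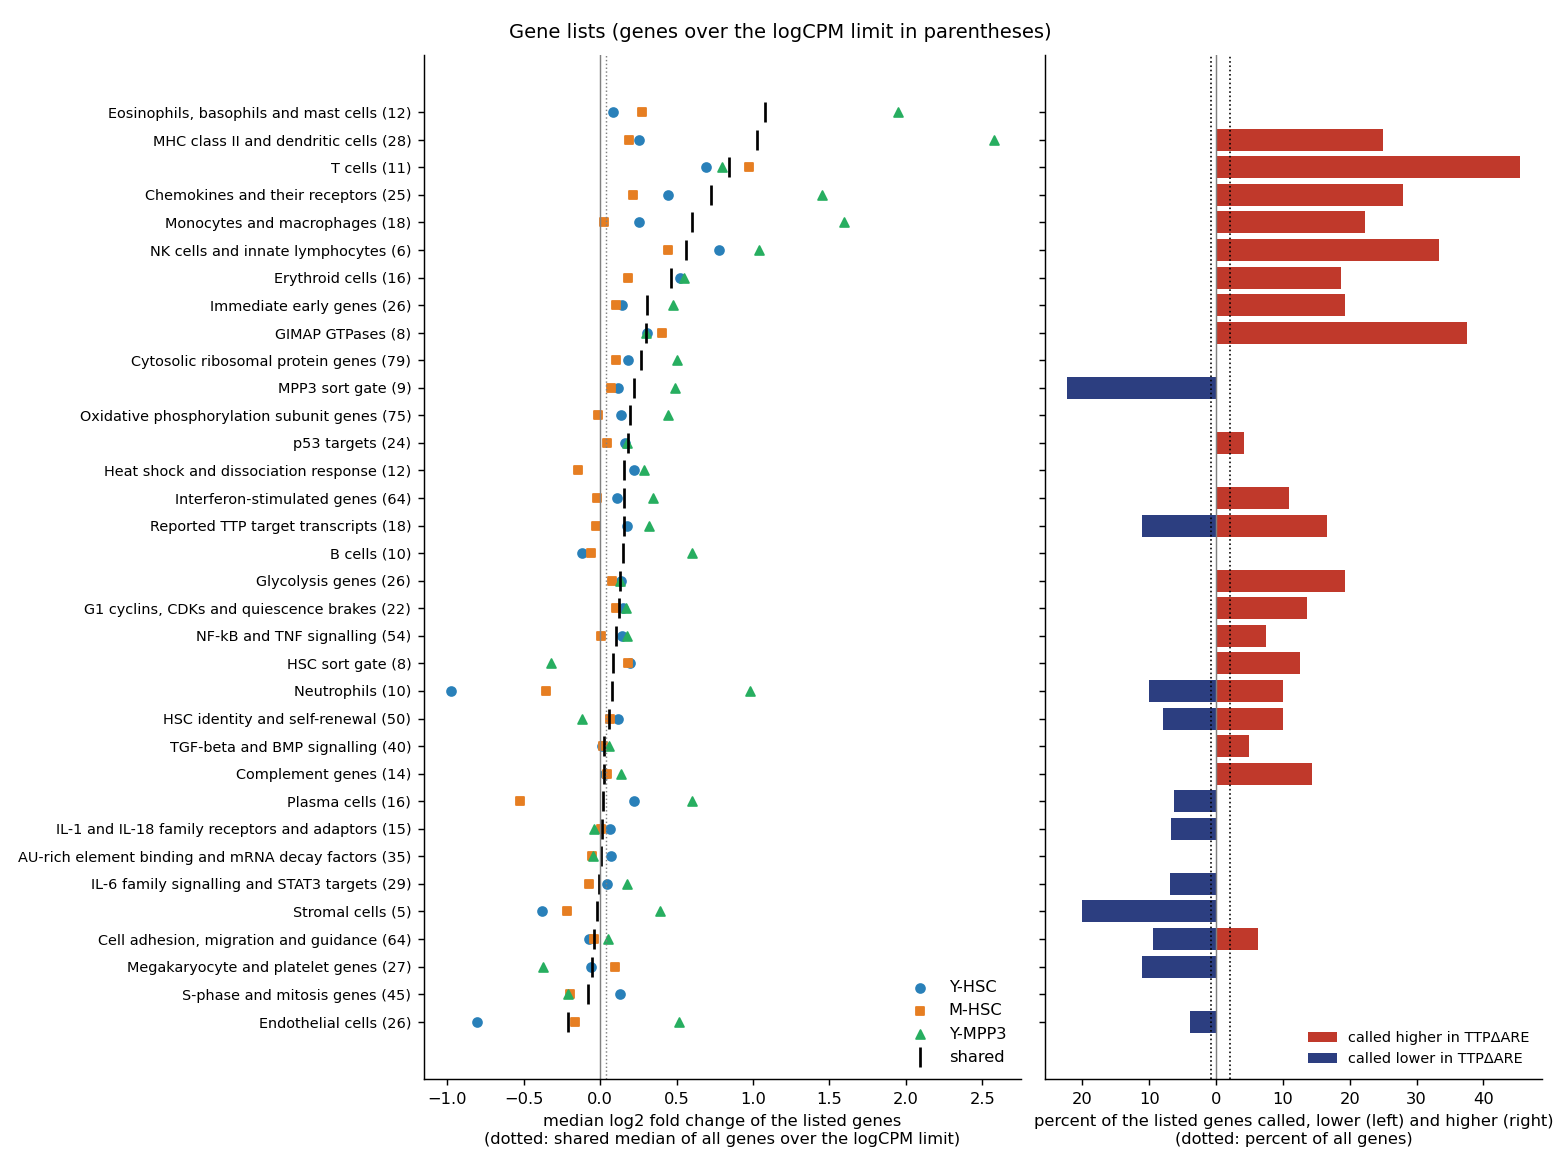
Left, median log2 fold change of each gene list by context and shared; right, percent of its genes called lower (blue) and higher (red), with dotted lines at the values of all genes (0.802% and 2.16%). The GIMAP list had medians of 0.30, 0.41 and 0.30 in Y-HSC, M-HSC and Y-MPP3, while the MHC class II and dendritic cell list had 0.25, 0.19 and 2.58.

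Genes that fell included receptors and feedback genes of cytokine signalling. Il1r1 (chr1:40225080-40317257), the signalling receptor of interleukin-1, was at 13.7, 19.7, 15.3 and 19.2 CPM in Y-WT and 7.33, 12.2, 11.6 and 12.2 CPM in Y-TTPΔARE HSCs. It was at 17.9, 15.6, 16.2, 18.2 and 17.7 CPM in M-WT and 11.7, 11 and 15.2 CPM in M-TTPΔARE HSCs, and at 66.1, 105, 91.6 and 82.8 CPM in WT and 43.6, 41.6, 49.7 and 38.6 CPM in TTPΔARE MPP3 cells. Each TTPΔARE library was below each WT library of its context. The shared change was 1.62-fold lower (log2 fold change -0.70, SE 0.10, adjusted p = 0.000735), and Il1r1 was the 1 called gene of 15 in the list of IL-1 and IL-18 receptors and adaptors. Csf3r, the G-CSF receptor, fell from 96.9 ± 14.8 to 72 ± 5.39 CPM in Y-HSC (SD, n = 4 and 4), from 155 ± 20.7 to 91.5 ± 12.6 CPM in M-HSC (n = 5 and 3) and from 244 ± 59.2 to 170 ± 12.3 CPM in MPP3 cells (n = 4 and 4). The groups were separate in each context, and the shared log2 fold change was -0.57 (SE 0.09, adjusted p = 0.00089).

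Of 29 genes of IL-6 family signalling and STAT3 targets, 2 were called, both lower. Without M-HSC 1 was called higher and 0 lower, and without Y-HSC 0 and 1, with fewer libraries fitted. Socs3, a feedback inhibitor of cytokine receptors, had a shared log2 fold change of -1.04 (SE 0.23, adjusted p = 0.0175). It was at 8.2 to 12.5 CPM in Y-WT against 4.99 to 7.94 CPM in Y-TTPΔARE HSCs and at 18.8 to 58.7 CPM in M-WT against 7.58 to 11.5 CPM in M-TTPΔARE HSCs, while the MPP3 groups overlapped. Pim2, a kinase downstream of STAT proteins, had -0.62 (SE 0.14, adjusted p = 0.0208) and was separate in M-HSC, at 104 to 204 CPM in WT and 64.2 to 67.4 CPM in TTPΔARE.

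Of 64 genes of adhesion, migration and guidance, 6 were called lower and 4 higher (Itgb7, Sema4a, Itgb2 and Jaml), beside 0.802% and 2.16% of all genes. The counts were the same without Y-TTPΔARE MPP3 replicate 4. Fits without M-HSC called 2 lower and 4 higher, and those without Y-HSC 4 lower and 5 higher. The median of the list was -0.07 in Y-HSC, -0.04 in M-HSC and 0.05 in Y-MPP3. S1pr1 and Podxl, described below, are not on this list. Plxnb2, a semaphorin receptor, was at 39.5, 51.9, 45 and 54.2 CPM in Y-WT and at 32.9, 36.2, 36.7 and 36.3 CPM in Y-TTPΔARE HSCs. In M-HSC it was at 102 to 122 CPM in WT and at 53.9, 59.6 and 49.6 CPM in TTPΔARE, and in MPP3 cells at 60.9 to 84.5 CPM and 41 to 56.6 CPM. The groups were separate throughout, with a shared log2 fold change of -0.63 (SE 0.09, adjusted p = 0.000334). Mmp14, a membrane-bound metalloproteinase, fell by 0.78 on the log2 scale (SE 0.12, adjusted p = 0.00114), and S1pr1, the sphingosine 1-phosphate receptor that guides egress, by 0.49 (SE 0.08, adjusted p = 0.000936), both with separate groups in each context. Podxl, a sialomucin of blood progenitors and endothelium, had -0.49, -0.52 and -1.92 in Y-HSC, M-HSC and Y-MPP3, which differed (adjusted p = 0.0157). Vldlr, a lipoprotein and reelin receptor, had the largest shared decrease of the named genes other than immunoglobulin genes (-1.76, SE 0.30, adjusted p = 0.00232). In Y-HSC its WT libraries lay at 10.5, 69.8, 42.1 and 16.6 CPM and overlapped the TTPΔARE libraries at 8.4, 9.82, 12.5 and 18 CPM. The other 2 contexts did not overlap, with 50.6 to 149 CPM in M-WT against 8.22 to 17.1 CPM in M-TTPΔARE and 50.6 to 134 CPM against 26.3 to 43.6 CPM in MPP3 cells. Also lower with separate groups in each context were Ajuba (-0.74), Zfp947 (-0.56) and Fam184a (-0.39), the shared log2 fold changes being in parentheses, while the predicted gene Gm34866 (-1.57) was separate in both HSC contexts and at most 0.214 CPM in MPP3 cells.

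Genes of megakaryocytes and platelets were called lower in 3 of 27 cases and higher in 0. Leaving out M-HSC or Y-HSC left 1 called lower in either fit. Itga2b, the platelet integrin subunit CD41, had a shared log2 fold change of -0.77 (SE 0.11, adjusted p = 0.000793), with -0.44, -0.99 and -0.88 in Y-HSC, M-HSC and Y-MPP3. Selp, P-selectin, was at 58 to 94.5 CPM in Y-WT and 38.4 to 50.7 CPM in Y-TTPΔARE HSCs, at 244 to 342 CPM in M-WT and 144 to 224 CPM in M-TTPΔARE HSCs, and at 15.1 to 64.6 CPM and 7.53 to 16.3 CPM in MPP3 cells. Its shared log2 fold change was -1.02 (SE 0.21, adjusted p = 0.0119), and Gp1ba, a von Willebrand factor receptor subunit, had -0.58 (SE 0.15, adjusted p = 0.0464). The median of the whole list was -0.06, 0.10 and -0.37 in Y-HSC, M-HSC and Y-MPP3, and at an unadjusted p under 0.05 3 of its genes were higher and 10 lower.

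Genes of HSC identity and self-renewal moved both ways, 5 of 50 called higher and 4 lower, and 2 higher and 5 lower without Y-TTPΔARE MPP3 replicate 4. With M-HSC left out 1 was called higher and 0 lower, and with Y-HSC left out 2 and 3. Gfi1, a repressor that restricts HSC proliferation, rose by a log2 fold change of 0.56 (SE 0.10, adjusted p = 0.00274), Hoxa9, a homeobox gene of primitive progenitors, by 0.41 (SE 0.07, adjusted p = 0.00315) and Procr, the EPCR surface marker of HSCs, by 0.39 (SE 0.08, adjusted p = 0.0131). Procr lost its call without Y-TTPΔARE MPP3 replicate 4 (0.32, adjusted p = 0.0562), and Txnip (0.42) likewise (0.39, adjusted p = 0.083). Sult1a1, a sulfotransferase, was the fifth (0.90, adjusted p = 0.0498). The lower ones were Itga2b, Cd34 (-0.36, SE 0.08, adjusted p = 0.0195), Zfp521 (-0.46, SE 0.11, adjusted p = 0.0276), a transcription factor of early progenitors, and Esam (-0.32, SE 0.08, adjusted p = 0.0286), an adhesion molecule of HSCs and endothelium. Cd34 was at 177 to 222 CPM in M-WT and 113 to 130 CPM in M-TTPΔARE HSCs, while the groups overlapped in the young cells. Cd34 is a marker of the gates themselves, and HSCs were sorted without it.

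Markers of other blood cells moved with the genotype, and their part in the results above was not tested. Of 22 T cell genes 11 were over the logCPM limit, 5 were called higher (Lck, Cd3g, Lat, Cd3e and Trbc2) and 3 without Y-TTPΔARE MPP3 replicate 4. Without Y-HSC only 5 were over the limit and 1 was called. The median shared log2 fold change of the list then went from 0.85 to 0.29. Without M-HSC 1 of 14 was called and without Y-MPP3 2 of 14, with fewer libraries fitted. Summed CPM of the 22 T cell genes were 115 to 167 in Y-WT and 171 to 346 in Y-TTPΔARE HSCs, 72.1 to 84.1 in M-WT and 90.5 to 120 in M-TTPΔARE HSCs, and 94.1 to 122 and 144 to 198 in WT and TTPΔARE MPP3 cells, so that the groups did not overlap in any context. Much of these sums came from Lat and Lck. The defining marker Cd3e was at 7.84, 2.69, 6.17 and 4.7 CPM in Y-WT and 25.6, 25.6, 8.42 and 11.8 CPM in Y-TTPΔARE HSCs. In M-HSC it was at 0.101 to 1.01 CPM in WT and at 4.12, 0.269 and 3.06 CPM in TTPΔARE, and in MPP3 cells it was at 0 in 2 of 4 WT libraries and at most 2.56 CPM. Of 18 genes of NK cells and innate lymphocytes 6 were over the limit and 2 called higher, Il2rb (2.04, SE 0.37, adjusted p = 0.0042) and Klrk1 (2.44, SE 0.50, adjusted p = 0.0111). Their summed CPM were 145 to 169 and 198 to 310 in Y-HSC, 127 to 154 and 174 to 181 in M-HSC, and 245 to 350 and 304 to 674 in MPP3 cells, WT first, and much of them came from Rora, Gata3 and Nkg7, which were not called. Lymphocytes also express GIMAP genes, Cxcr6, Itgb7, Ccl3 and Ccl4.

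**Figure D5:**
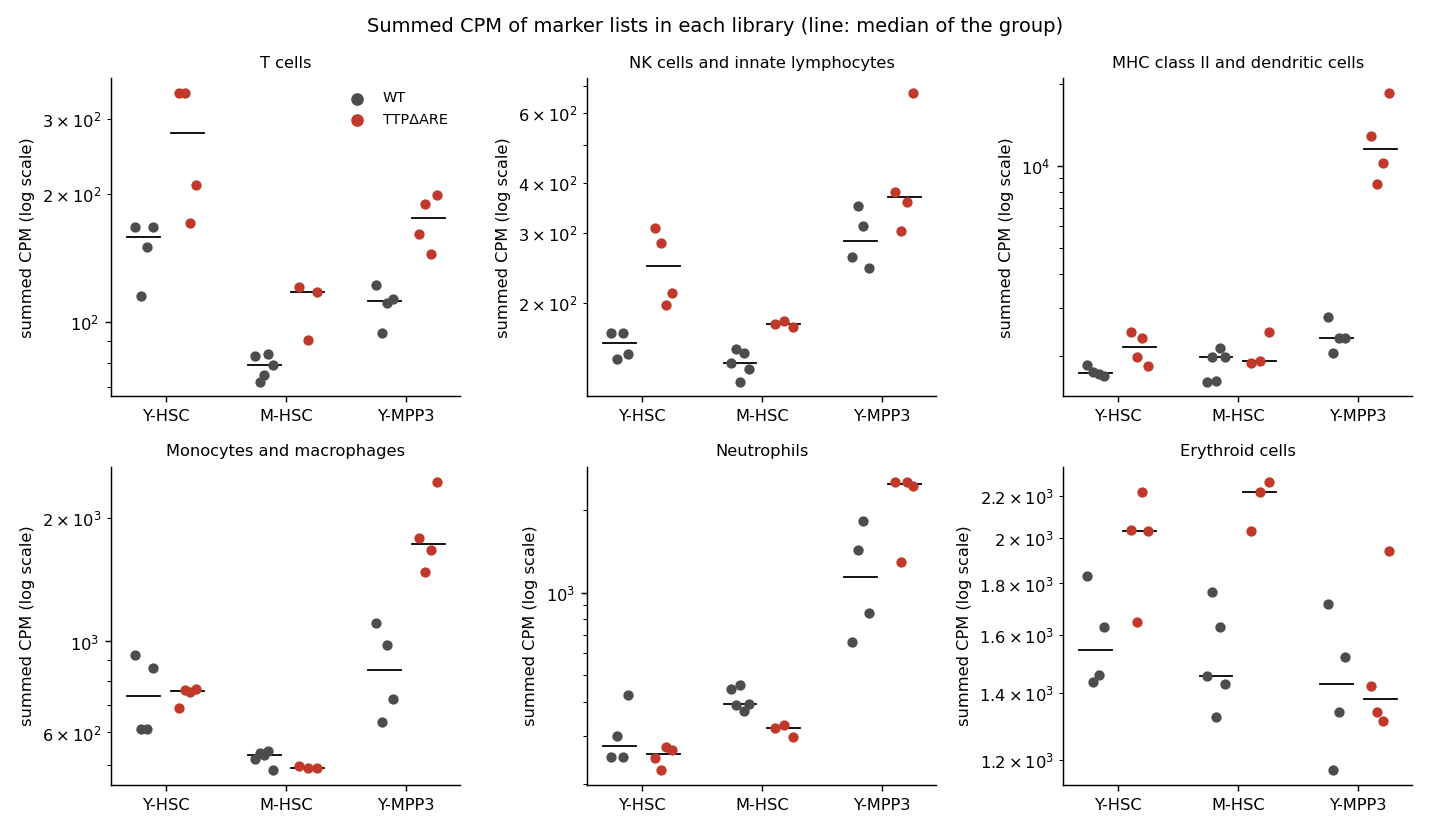
Summed CPM of 6 marker lists in each library on a log scale, with a line at the median of the group. T cell markers did not overlap between genotypes in any context (115 to 167 against 171 to 346 in Y-HSC), while markers of MHC class II and dendritic cells were separate only in MPP3 cells (2040 to 2770 against 8600 to 18600).

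Myeloid and dendritic cell markers moved mainly in MPP3 cells. Of 28 genes of MHC class II and dendritic cells, 7 were called higher for the shared effect, 4 without Y-TTPΔARE MPP3 replicate 4 and 0 without the MPP3 cells, where 22 were over the limit. Their summed CPM were 1680 to 1840 and 1830 to 2440 in Y-WT and Y-TTPΔARE HSCs, 1600 to 2140 and 1870 to 2450 in M-HSC, and 2040 to 2770 and 8600 to 18600 in MPP3 cells. Of 18 genes of monocytes and macrophages 4 were called higher (Ccr2, C1qa, Cd68 and Adgre1), and the summed CPM were 613 to 927 and 686 to 764 in Y-HSC, 485 to 542 and 492 to 497 in M-HSC, and 635 to 1110 and 1470 to 2450 in MPP3 cells. Cd68, a lysosomal protein of macrophages, had 0.44, -0.01 and 1.63 in Y-HSC, M-HSC and Y-MPP3. The neutrophil list had 1 gene called higher (Gfi1) and 1 lower (Csf3r) of 10, and the lists of B cells and of eosinophils, basophils and mast cells had 0 called by edgeR of 10 and 12, and 0 and 1 by DESeq2. At an unadjusted p under 0.05 there were 0 B cell genes, and 7 genes higher and 1 lower of the latter list. Of 5 stromal genes over the limit, Pdgfrb, a growth factor receptor of pericytes, was called lower (-0.99, SE 0.16, adjusted p = 0.00141).

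Immunoglobulin and T-cell receptor segment genes varied between libraries of a group. Of 135 over the limit, 1 was called higher and 14 lower, and their share of counts was 0.146 to 3.02% per library. Ighg2c, a constant region gene of the plasma cell list called lower (adjusted p = 0.0472), was at 131, 395 and 87.2 CPM in 3 of 5 M-WT HSC libraries, at 685 CPM in 1 of 4 Y-WT MPP3 libraries and at most 2.64 CPM in all others. With the segment genes left out of the fit, 315 genes were called higher and 99 lower.

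The question whether a genotype effect was of 1 size in the 3 contexts was tested directly. The difference between contexts was called for 228 genes (1.68%), of which 38 were also called for the shared effect, 36 higher and 2 lower. It was called for 141 genes without Y-WT HSC replicate 4 and for 354 without Y-TTPΔARE MPP3 replicate 2. In 200 of the 228 the MPP3 change was farthest from 0, and in 145 of these it was higher in TTPΔARE. The 6 genes with the smallest p were Naaa, Clec9a, Ciita, H2-Ab1, Slc46a3 and Tlr3, with adjusted p of 7.13e-07 to 1.82e-06. Ciita, the master regulator of MHC class II genes, was at 55.1 to 90.7 CPM in Y-TTPΔARE and 8.51 to 11.2 CPM in Y-WT MPP3 cells, against 9.9 to 21.8 CPM in all HSC libraries. Clec9a, a receptor of cross-presenting dendritic cells, was at 18 to 46.9 and 0.693 to 1.66 CPM in TTPΔARE and WT MPP3 cells. Both HSC contexts of Ciita overlapped, with log2 fold changes of 0.05 and 0.05 against 3.01 in MPP3 cells. Each of the 4 Y-TTPΔARE MPP3 libraries was above every other library of the study in each of these 6 genes. The 6 were chosen by their p in the same libraries, so this separation is largely built into the choice.

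Lists that describe the machinery of mRNA decay and growth held few or no called genes. Of 35 AU-rich element binding and decay factors 0 were called by edgeR or DESeq2 (2 higher and 5 lower at an unadjusted p under 0.05), and their median shared log2 fold change was 0.00, which turned negative with other scaling factors. Of 79 cytosolic ribosomal protein genes 74 had a positive log2 fold change in each of the 3 contexts, beside 24.7% of all genes over the limit, but 0 were called by edgeR and 1 by DESeq2, with 36 higher and 0 lower at an unadjusted p under 0.05. Their median was 0.18, 0.11 and 0.50 in Y-HSC, M-HSC and Y-MPP3 and 0.27 shared. It was 0.07 without Y-TTPΔARE MPP3 replicate 4 and 0.21 with RLE factors. Of 75 oxidative phosphorylation genes 0 were called by edgeR and 1 by DESeq2 (14 higher and 0 lower at an unadjusted p under 0.05), with medians of 0.13, -0.02 and 0.45.

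A published signature of HSC aging, as the study lists it, was set beside the shared effect. Of 296 genes that rise with age 19 were called higher (6.42%) and 16 lower (5.41%), and of 105 that fall with age 17 were called higher (16.2%) and 2 lower (1.9%), beside 2.16% and 0.802% of all genes. The 2 that were lower in both, Cd34 and Il17re, were named after their values were seen. Genes with known roles in this account stood on the rising list with either sign: Sbspon, Procr and Zfp36 were higher and Vldlr, Selp, Il1r1, S1pr1 and Mmp14 lower in TTPΔARE.

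Because the deletion is on chromosome 7, the positions of the called genes were counted. Of 288 genes called higher that were placed in the annotation, 27 (9.38%) were on chromosome 7, against 7 of 109 called lower (6.42%) and 7.62% of all genes over the limit. Within 10 Mb of Zfp36 there were 7 genes called higher, Zfp36 included (2.43%), and 2 called lower (1.83%), against 1.77% of all genes. Of 29 placed genes called higher with separate groups in the 3 contexts, 5 (17.2%) were on chromosome 7. Within 10 Mb there were 2 of the 29 (6.9%), Zfp36 included. Of the 10 called lower with separate groups, 0 were on chromosome 7. Ffar2, 2.44 Mb away, was lower (-0.74), and Tyrobp, at 2.04 Mb, was higher (0.85), both chosen after their values were seen. Whether alleles linked to the deletion have a part in these values was not tested.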

How the data were processed

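Bulk mRNA-seq was measured in sorted HSCs and MPP3 cells. Per the labels and the study's methods, the authors used Cutadapt through Trim Galore for trimming, STAR for alignment to mm10 and featureCounts for counting per gene, and they deposited raw counts for each library. The versions of STAR and featureCounts, the strand setting and the treatment of multimapping reads are not given in the sources used here. Reads of near-identical or overlapping genes can therefore be split or merged. Library totals of 24261371 to 39934554 counts set the precision, which is lowest for genes of low CPM.

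Samples were grouped by their titles. Here, 29115 of 55376 genes passed filterByExpr (minimum count 10, minimum total count 15) and were fitted with the edgeR 4.0.16 quasi-likelihood test (R 4.3.3) after TMM scaling. The shared effect was the genotype term of an additive model with context as block. Contexts and their difference came from a model of the 6 group means, the latter as a test of the interaction. P-values were adjusted by Benjamini-Hochberg over all tested genes. CPM of a gene are scaled for depth, not for gene length. Between libraries of a group, chi-square per degree of freedom was 18.2 to 247, so none was counted as a repeat of another. Scripts were tested on simulated data. DESeq2 1.42.0, limma 3.58.1, other scalings, filters and limits, left-out libraries and contexts, covariates and blocks were tried as alternatives.

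The comparison, the gene lists and the tests were chosen with earlier results of these data known. Named genes were Zfp36 and its family, then the 12 higher and 12 lower genes with the largest shared change among called genes that did not overlap in 3 contexts (then in 2), segment and olfactory receptor genes left out. Up to 4 called genes a list and direction with the smallest p and the 6 genes with the smallest p for the difference between contexts followed. Pfkfb3, Dusp5, Sult1a1 and Trbc2 complete short lists and were named after their values were seen. Positions, 3′ UTRs and sequences are from GENCODE M21 on GRCm38, while the authors counted on M22. Of 2420 names on the CLIP list, 2332 were in the count table, and of 431 on the aging list, 424. Columns of the authors' own fold changes in their supplement were not used.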

Additional observations from a re-analysis of the deposited data

Results flagged for a closer look

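In groups of 4 or 5 libraries, the value farthest out was compared with the spread of the others by Dixon's test, and 15 of 210 groups had such a library, where chance gives about 1 in 20. Among the named genes, Ccl3 was at 6.69 CPM in Y-WT HSC replicate 3 (others 4.06 to 4.39), Podxl at 26.2 CPM in Y-WT HSC replicate 2 (others 17.7 to 19.1) and Zfp521 at 50.4 CPM in Y-WT MPP3 replicate 1 (others 58.2 to 59.1). Y-TTPΔARE HSC replicate 1 was low in Il1r1 at 7.33 CPM (others 11.6 to 12.2), in Plxnb2 at 32.9 CPM (others 36.2 to 36.7), in the summed CPM of B cell genes at 211 (others 904 to 956) and in that of monocyte and macrophage genes at 686 (others 755 to 764). Gm34866 was at 0.214 CPM in Y-TTPΔARE MPP3 replicate 4 and at 0 in the other 3 libraries.

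Other summed marker lists had 1 library apart. Y-WT HSC replicate 3 held 23300 CPM of B cell genes (others 146 to 2690) and 478 CPM of genes of eosinophils, basophils and mast cells (others 410 to 417). Y-WT MPP3 replicate 1 held 40600 CPM of plasma cell genes (others 3230 to 7470) and 35700 CPM of immunoglobulin and T-cell receptor segments (others 2170 to 7680). Y-TTPΔARE MPP3 replicate 2 held 1300 CPM of neutrophil genes (others 2450 to 2540). Olfactory and vomeronasal receptor genes summed to 199 CPM in M-WT HSC replicate 4 (others 37.2 to 81) and to 525 CPM in Y-TTPΔARE MPP3 replicate 3 (others 50.2 to 116).

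For 15 named genes the genotype effect differed between contexts by edgeR's test of the interaction. The adjusted p was 0.00202 for Ccr2, 0.0157 for Podxl, 0.00623 for Traf1, 8.34e-05 for Id2, 0.00157 for Irf5 and 0.0374 for Sema4a. It was 4.22e-05 for H2-DMb1, 0.00204 for H2-DMb2 and 0.000426 for Cd68. The smallest values were 7.13e-07 for Naaa, 9.8e-07 for Clec9a, 1.4e-06 for Ciita, H2-Ab1 and Slc46a3, and 1.82e-06 for Tlr3.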

How the results depend on the processing

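Zfp36 was called under every alternative run, with log2 fold changes of 0.95 to 1.44, and of 1.21 to 1.38 when 1 library was left out. Genes called for the shared effect (293 higher, 109 lower) numbered 402 and 308 with DESeq2, 522 and 197 with limma voom and quality weights, 183 and 153 with no scaling factors, and 147 and 128 with no filter on low counts. They numbered 186 and 95 without Y-HSC, 168 and 14 without M-HSC, and 86 and 148 without Y-MPP3, where fewer libraries were fitted. Of these with the same sign in the fitted contexts (288 and 105), there were 350 and 289 with DESeq2, 177 and 148 with no scaling factors, 140 and 121 with no filter, 184 and 95 without Y-HSC, 168 and 14 without M-HSC, and 86 and 148 without Y-MPP3. Leaving out 1 library gave 173 to 339 higher and 70 to 126 lower, 167 to 334 and 65 to 123 with the same sign, and 141 to 354 for the difference between contexts (228), which was 660 with DESeq2 and 704 with voom. Changes in each context (0) numbered 5 with DESeq2, 3 with the likelihood ratio test, 2 with voom, and 0 to 1 with 1 library left out, the 1 being without Y-WT MPP3 replicate 3. The cause of these differences was not tested.

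The labels give both genotypes the same replicate numbers. Deviations of WT and TTPΔARE libraries of the same number had r of -0.151 to 0.213 (11 pairs, median -0.017, 1 over 0.1). Of 22 libraries, 2 correlated best with their own number. Olfactory and vomeronasal receptor genes were lowest in replicate 1 of both Y-HSC groups (57.82 and 72.21 CPM). They were highest in replicate 3 of both Y-MPP3 groups (325 and 524.6 CPM). In M-HSC, replicate 1 was lowest in WT (37.25 CPM) and highest in TTPΔARE (388.2 CPM). Whether libraries of the same number were processed together was not tested, and the reported fit did not pair them. With a replicate block there were 76 genes higher and 18 lower, 75 and 18 with the same sign, 128 for the difference between contexts, and a Zfp36 log2 fold change of 1.37. Y-HSC and Y-MPP3 libraries of the same genotype and number had r of 0.029 to 0.234 (8 pairs, median 0.158, 6 over 0.1). The labels do not say that they came from the same mice, and the reported fit took them as independent. With them as a random block (correlation 0.052) there were 436 and 145.

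Signs turned for 5 named genes, none of them called for the shared effect. Zfp36l1 was at -0.02 with voom, -0.01 with no scaling factors, -0.00 with no filter, -0.10 without Y-MPP3, -0.05 without Y-TTPΔARE MPP3 replicate 4 and -0.01 without it and Y-WT HSC replicate 1, an alternative chosen after seeing the data. Zfp36l2 was at -0.03 with DESeq2, -0.00 with voom, -0.03 with RLE factors, -0.02 with upper quartile factors, -0.04 with no scaling factors, -0.04 with no filter, -0.13 without Y-HSC and -0.02 to -0.01 without 1 of 5 young HSC libraries. Leaving out 1 library gave -0.05 to 0.09 for Zfp36l1 and -0.02 to 0.03 for Zfp36l2. Without Y-MPP3, Ciita was at -0.00, Slc46a3 at -0.18 and Tlr3 at -0.39. Of the other values of named genes, 3057 kept their side of the threshold, 464 lost a call and 10 gained one. Other scalings moved the median log2 fold change of all genes from 0.041 to between -0.020 and 0.009.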

Other observations

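Smaller lists gave few calls for the shared effect. Of 14 complement genes over the logCPM limit, 2 were called higher, Cfp, which encodes properdin, and C1qa, a subunit of the first complement component and a gene of macrophages. Their list had a median shared log2 fold change of 0.03 (0.03, 0.04 and 0.14 in Y-HSC, M-HSC and Y-MPP3). Of 24 p53 targets, Cdkn1a was called, with a median of 0.18 over the list. Of 12 genes of heat shock and the response to tissue dissociation, 0 were called by edgeR or DESeq2, and 1 was higher at an unadjusted p under 0.05. Of 26 endothelial genes, Esam was called lower, and 6 were lower without the MPP3 cells. The endothelial list summed to 1250 to 2760 CPM in Y-WT and 1250 to 1430 CPM in Y-TTPΔARE HSCs, and to 602 to 698 and 526 to 684 CPM in WT and TTPΔARE MPP3 cells.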
